A study of Mus musculus with 18 samples.

Results

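The WT line was profiled by polyA RNA-seq and by rRNA-depleted RNA-seq, and the same genes were read in both kinds of library. The samples were the 3 polyA and the 3 rRNA-depleted libraries of the Atrx WT line, 6 of the 18 libraries of the series, and the genes were the 24100 Entrez identifiers present in both tables. The WT line is C3H/10T1/2, a mouse mesenchymal progenitor cell line that received Cas9 without a guide, kept in DMEM with 10% serum and no differentiation cues. The other 12 libraries came from 2 Atrx knockout clones, sg5 G7 and sg6 B10, of the same parental line and with the same 2 kinds of library, and they serve here as a second reading of the same contrast. Each line is a single isogenic line or clone, so p-values measure only the spread between libraries of one line. Atrx itself had 321 ± 33.6 CPM (mean ± SD, n = 3) in the polyA and 252 ± 38.6 CPM in the rRNA-depleted WT libraries. CPM is a gene's count scaled to a fixed library total, here the total over the 24100 shared genes. Library kind, sequencing facility and counting tool all changed together between the 2 sets, and the parts they play cannot be told apart. Whether the cells of the 2 sets were harvested separately is not stated in the sources used here.

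Selection with oligo-dT recovers RNAs that carry a poly(A) tail, whereas depletion of rRNA with probes leaves tailed and untailed RNAs alike. Most mRNAs and many long noncoding RNAs are tailed. Replication-dependent histone mRNAs are not, and end instead in a conserved stem-loop bound by SLBP. RNA polymerase III transcripts, small nucleolar RNAs, Cajal body RNAs and the telomerase RNA are also matured without a stable tail.

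Shown here are 3′ end sequences of histone mRNAs and of mRNAs that led the polyA libraries, and noncoding RNAs that were high in the rRNA-depleted libraries. All are from GENCODE (GRCm38) and written 5′ to 3′ in transcript orientation. In the histone genes the capitals mark the 16-base stem-loop, searched on the transcript strand as a 5′ arm GGNNCT, a loop TTTN and a 3′ arm AGNNCC.
H4c18, chr13:21831793-21831818 (- strand): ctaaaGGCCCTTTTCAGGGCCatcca
H4c6, chr13:23551286-23551311 (- strand): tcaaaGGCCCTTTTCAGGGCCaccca
H4c3, chr13:23698084-23698109 (- strand): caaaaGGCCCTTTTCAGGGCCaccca
H3c7, chr13:23544927-23544952 (+ strand): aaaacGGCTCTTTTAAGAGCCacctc
H4c8, chr13:23531453-23531478 (+ strand): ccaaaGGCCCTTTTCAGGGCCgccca
H1f2, chr13:23739507-23739532 (+ strand): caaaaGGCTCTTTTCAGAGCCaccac
H3c14, chr3:96247322-96247347 (+ strand): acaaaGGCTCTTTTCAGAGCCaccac
Each of the 7 was cut out by its match to the pattern. They can therefore differ only at its open positions and in the bases beside it. In the mRNAs that led the polyA libraries the capitals mark the last polyadenylation signal, AATAAA or ATTAAA, within the final 50 bases of the transcript. Among them Eef1a1 was high in both kinds and not called, at log2 −0.51.
Fn1, chr1:71585525-71585550 (- strand): agtgttttAATAAAaagatttacatt
Col1a1, chr11:94953010-94953035 (+ strand): attgctggAATAAAgcatgtggaaat
Col1a2, chr6:4541497-4541522 (+ strand): aaaaataaAATAAAgcatttttggtt
Eef1a1, chr9:78478458-78478483 (- strand): ttgagaccATTAAAacaagtttaatg
Rmrp and the first 300 of the 319 bases of Rpph1, the RNA subunits of RNase MRP and RNase P, are shown because they were the highest genes of the rRNA-depleted libraries. Neither holds AATAAA or ATTAAA in its last 50 bases.
Rpph1, chr14:50807468-50807767 (- strand): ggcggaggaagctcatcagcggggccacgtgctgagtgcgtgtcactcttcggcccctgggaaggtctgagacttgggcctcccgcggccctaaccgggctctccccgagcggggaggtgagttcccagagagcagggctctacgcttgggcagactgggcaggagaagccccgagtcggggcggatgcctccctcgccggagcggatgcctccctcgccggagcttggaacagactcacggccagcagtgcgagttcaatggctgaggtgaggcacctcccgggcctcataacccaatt
Rmrp, chr4:43492788-43493058 (- strand): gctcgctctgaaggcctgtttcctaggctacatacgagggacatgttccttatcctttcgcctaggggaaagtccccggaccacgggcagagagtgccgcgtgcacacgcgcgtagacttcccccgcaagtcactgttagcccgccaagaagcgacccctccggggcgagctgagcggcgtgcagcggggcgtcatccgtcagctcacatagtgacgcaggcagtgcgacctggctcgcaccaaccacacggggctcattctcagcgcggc
Snord33 and Snord96a, box C/D small nucleolar RNAs that lie within the ribosomal protein gene Rpl13a and within Rack1, were the highest of their class. Capitals mark the letters TGATGA of box C and CTGA of box D.
Snord33, chr7:45126864-45126947 (- strand): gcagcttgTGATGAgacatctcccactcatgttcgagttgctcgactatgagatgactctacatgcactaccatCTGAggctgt
Snord96a, chr11:48802032-48802112 (+ strand): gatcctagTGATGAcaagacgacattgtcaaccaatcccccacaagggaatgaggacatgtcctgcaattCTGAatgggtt

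The polyA WT libraries held 27544833 to 80772108 counts on the shared genes and the rRNA-depleted ones 21161285 to 28030873. Log2 values correlated across the tested genes at Pearson's r of 0.981 to 0.992 within the polyA libraries and 0.988 to 0.991 within the rRNA-depleted libraries. Between kinds r was 0.801 to 0.843, over 14312 genes that share these libraries. Of the 14312 genes tested, 3498 (24.4%) were higher in polyA and 2261 (15.8%) were higher in rRNA-depleted libraries, 40.2% together (edgeR quasi-likelihood test, log2 fold change beyond 1 and Benjamini-Hochberg adjusted p below 0.05). These shares are the background for every count given by class. The count filter could be passed through the libraries of either kind alone. The direction of a call was then largely set by the filter. With library totals as the scale in place of TMM (trimmed mean of M-values) factors, the split was 4149 against 1693, and the median over all tested genes moved from 0.06 to 0.27 on the log2 scale. All log2 fold changes given are polyA minus rRNA-depleted under TMM scaling. A log2 value fitted for a gene with 0 to 3 counts in one kind depends on the prior count and is no bound on its fold.

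**Figure D1:**
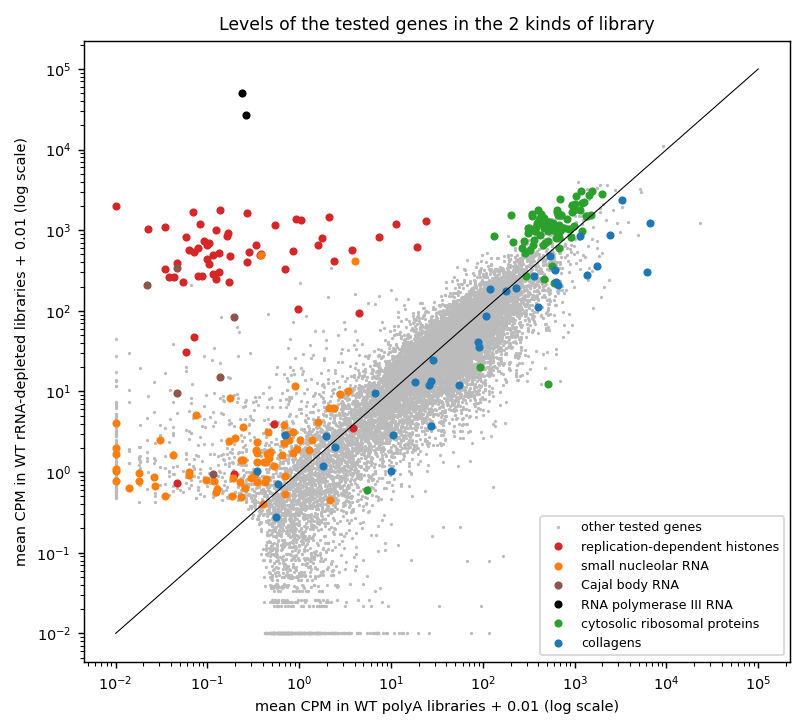
Mean CPM of each tested gene in the 3 WT polyA libraries (x axis) and in the 3 WT rRNA-depleted libraries (y axis), both on log scales after adding 0.01, with the line of equal levels. Replication-dependent histones and the 2 RNA polymerase III RNAs lie far above the line, small nucleolar and Cajal body RNAs mostly above it, and most collagens below it.

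Replication-dependent histone mRNAs encode the proteins that package newly made DNA in S phase. They took 0.00918% ± 0.00198 of the polyA counts and 3.88% ± 0.514 of the rRNA-depleted counts (mean ± SD, n = 3). Of 62 listed genes 60 were tested, and 59 of them were higher in rRNA-depleted libraries against 15.8% of all tested genes. Members with hardly any polyA count passed the count filter only through the rRNA-depleted libraries, so the direction of their calls was largely set by the filter. The median log2 fold change of the tested members was −11.67, against 0.06 over all tested genes. The share of counts differed with an exact two-sided permutation p = 0.10, the smallest that 3 against 3 libraries can give, and Benjamini-Hochberg adjusted p = 0.12 over 24 classes. The exact permutation p was the same for every other class except glycolysis (0.40), translation factors (0.70), the lncRNA list (0.90) and annotated lncRNA genes (1.0). Because each histone family consists of near-identical copies, the values of single genes are uncertain, and family sums are given as well. All libraries are of bulk RNA, in which fewer cells of a type and less RNA per cell cannot be told apart.

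All 5 families were far higher in rRNA-depleted libraries. H4 genes, which encode the most conserved core histone, took 0.00124% ± 0.00026 of polyA counts and 1.45% ± 0.19 of rRNA-depleted counts, and all 14 were called. H3 genes took 0.00121% ± 0.00027 and 0.717% ± 0.103, with all 10 called. H2B genes took 0.00324% ± 0.00099 and 0.649% ± 0.0995, H2A genes 0.00087% ± 0.00024 and 0.622% ± 0.080. The linker H1 genes took 0.00262% ± 0.00028 and 0.443% ± 0.048.

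H4c18 had no count in any polyA library and 2108, 2239 and 1724 CPM in the rRNA-depleted libraries. Against a floor of 3 counts per library this was at least 27830.0-fold higher. H4c8 had 0.0363, 0.173 and 0.168 CPM in polyA and 1884, 1931 and 1538 CPM in rRNA-depleted libraries. H4c3 had 0.0363, 0 and 0.144 against 1765, 1825 and 1526 CPM. For both genes the 2 groups were far apart and the lowest rRNA-depleted value was in the third library. H3c7 gave 0.0726, 0 and 0.144 against 1293, 1278 and 1051 CPM. H3c10, H4c1, H4c6 and H2ac22 had rRNA-depleted means of 820.4, 1112, 1048 and 329.8 CPM and polyA means below 0.06 CPM. All genes of this paragraph were among those named for the largest change, a rule that required groups that do not overlap.

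A few members had measurable polyA signal. H1f2 had 21.6, 22.6 and 27.01 CPM in polyA and 1475, 1288 and 1190.0 CPM in rRNA-depleted libraries, log2 −6.01 (SE 0.16, adjusted p = 4.4e-08). H3c14 had 10.5, 9.09 and 14.1 against 1278, 1308 and 985 CPM, log2 −6.95 (SE 0.24, adjusted p = 1.9e-07). H2bc4 (chosen after its values were seen) had 15.7, 16.5 and 25.8 against 675, 685 and 521 CPM. The annotated transcripts of H1f2 and H3c14 run 840 and 1162 bases past the stem-loop shown above. Those of H4c3 and H3c7, whose polyA means were only 0.0602 and 0.0723 CPM, run 454 and 365 bases past it. H2bc21 was the single tested member not called (also chosen after its values were seen), with 1.92, 3.65 and 5.96 CPM in polyA and 3.45, 2.47 and 4.64 CPM in rRNA-depleted libraries. Its log2 fold change of −0.08 (SE 0.39, adjusted p = 0.87) changed sign under library totals.

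The replacement histones are expressed through the cell cycle, mostly from polyadenylated mRNAs, although H2ax mRNA is also made in a form that ends in a stem-loop without a tail. Of 10 tested genes 2 were called, both higher in rRNA-depleted libraries, and their median log2 fold change was −0.18. H3f3a, a source of H3.3, had 531, 564.03 and 619 CPM in polyA and 386, 343 and 395 CPM in rRNA-depleted libraries, a log2 difference of 0.40 that did not reach the fold threshold. H3f3b had 1367, 1651 and 1765 against 1233, 995 and 1077 CPM. H2az1, which encodes H2A.Z, had 245, 196 and 123.4 against 922, 907 and 728 CPM, log2 −2.39 (SE 0.25, adjusted p = 6.1e-05). H2ax, the histone phosphorylated at DNA breaks, had 69.5, 70.8 and 47.99 against 349.6, 354 and 275 CPM, log2 −2.59 (SE 0.19, adjusted p = 1.0e-05). For H2az1 and H2ax the groups did not overlap, and the third library had the lowest value of each group. H1f0 had 556 and 883 CPM on average and was not called.

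Near annotated transcript ends the stem-loop letters were found in histone genes alone. They were present in the last 50 bases of 18.3% of the 60 tested replication-dependent histone transcripts and of 0.0826% of the 13313 tested genes with a transcript. In the last 100 bases they were found in 19 of 21167 transcripts, and all 19 were replication-dependent histones, tested and higher in rRNA-depleted libraries. Anywhere in the transcript, a search added after seeing the data, they were found in 39 of 62 histones and in 24 other genes. Of the 18 tested among those others, 2 were higher in rRNA-depleted and 9 in polyA libraries. The polyadenylation signals AATAAA or ATTAAA stood in the last 50 bases of 77.7% of the genes higher in polyA, 73.9% of those higher in rRNA-depleted libraries and 79.7% of those not called. Among the histones it was 26.7%. Without the histones the share for genes higher in rRNA-depleted libraries was 75.5%.

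The 2 highest genes of the rRNA-depleted libraries were RNA polymerase III transcripts. Rpph1, the RNA of RNase P that trims the 5′ ends of tRNAs, had 48731, 47992 and 55573 CPM in the rRNA-depleted libraries and 0.254, 0.173 and 0.264 CPM in the polyA libraries. Rmrp, the RNA of RNase MRP that acts in pre-rRNA processing, had 27442, 26631 and 27455 CPM against 0.254, 0.149 and 0.360 CPM. Rpph1 lies on chromosome 14 at 50807447 to 50807771, and Rmrp on chromosome 4 at 43492785 to 43493059, where 45.8% of its exonic bases also lie in exons of Ccdc107. Fitted values were log2 −18.03 (SE 0.22, adjusted p = 3.0e-09) for Rpph1 and log2 −17.02 (SE 0.29, adjusted p = 1.6e-08) for Rmrp. With Vaultrc5 and Bc1, which were too low to test, they made up 7.79% ± 0.447 of the rRNA-depleted counts. In polyA libraries the 4 genes took 7.13e-05% ± 1.72e-05. The lists also named the 7SK and 7SL RNAs, rRNA genes and genes of the mitochondrial genome, but no shared gene was matched to them by symbol. They were therefore not analysed here, and ranks are among the shared genes only.

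**Figure D2:**
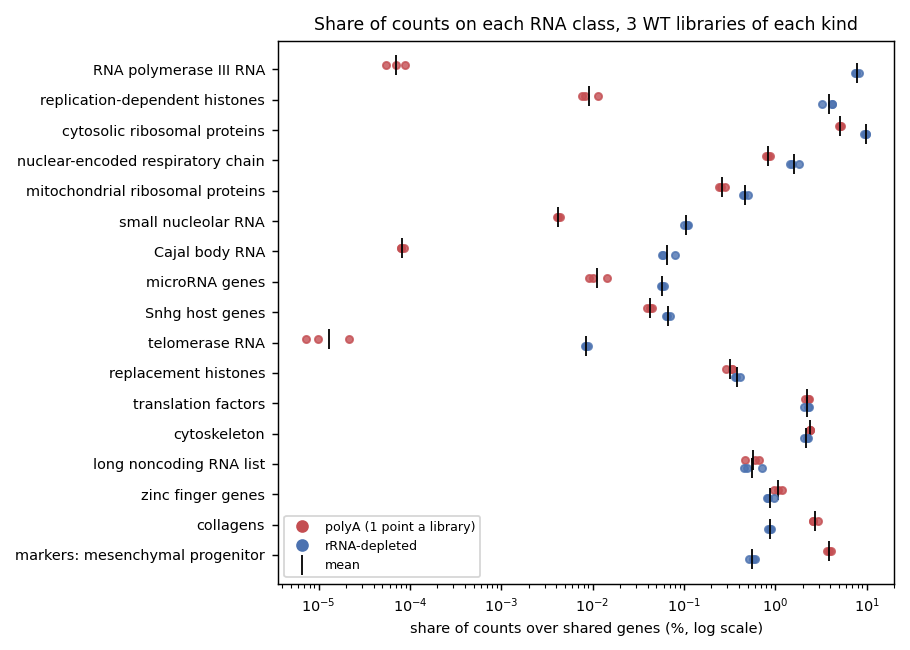
Share of the counts over shared genes on each RNA class (x axis, percent on a log scale), 1 point for each of the 6 WT libraries and a bar at the mean of each kind. RNA polymerase III RNAs and replication-dependent histones take under 0.02% of every polyA library and over 3% of every rRNA-depleted library, whereas collagens and the mesenchymal markers take more of the polyA libraries.

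Small guide RNAs of the nucleolus and the Cajal body direct chemical modification of rRNA and of spliceosomal RNA. Of 102 small nucleolar RNAs 71 were tested. Of these 66 were higher in rRNA-depleted libraries and 1, Snora31, was higher in polyA. Their median log2 fold change was −2.35, and their share was 0.00423% ± 0.000203 of polyA and 0.106% ± 0.00504 of rRNA-depleted counts. Most of that share came from a pair of genes. Snord33 had 0.545, 0.310 and 0.264 CPM in polyA and 468, 484 and 506 CPM in rRNA-depleted libraries. Snord96a had 3.78, 4.43 and 3.99 against 384, 428 and 446 CPM, log2 −6.89 (SE 0.14, adjusted p = 2.8e-08). The next highest, Snord88a, had 11.6 CPM in rRNA-depleted libraries, and the median over the tested members was 1.48 CPM there and 0.332 CPM in polyA libraries. For members that passed the count filter only through the rRNA-depleted libraries, the direction of the call was largely set by the filter. Of the 71 tested, 69 overlap the body of another gene of the table, as against 30.7% of all tested genes. The host of Snord33, Rpl13a, had 673 and 1539.5 CPM, and the host of Snord96a, Rack1, 1016 and 1481 CPM. The part of host reads in the values of these nested genes was not tested.

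All 6 tested Cajal body RNAs were higher in rRNA-depleted libraries, with a median log2 fold change of −8.74. Their median level was 0.0707 CPM in polyA and 49.5 CPM in rRNA-depleted libraries. Members this low in polyA passed the count filter only through the rRNA-depleted libraries, so the direction of their calls was largely set by the filter. Scarna10 had 0.0726, 0.0371 and 0 CPM in polyA and 433, 298 and 285 CPM in rRNA-depleted libraries. Scarna2 had 0, 0.0124 and 0.0240 against 251, 189.9 and 181 CPM, and Scarna13 0.109, 0.198 and 0.240 against 90.02, 81.3 and 81.2 CPM. In all 3 the highest rRNA-depleted value was in the first library. Terc, the template RNA of telomerase, had 0.0726, 0.0990 and 0.216 against 81.7, 89.03 and 84.1 CPM, log2 −9.56 (SE 0.25, adjusted p = 4.0e-08). The minor spliceosome RNAs Rnu12 and Rnu11 were the tested members of the snRNA list. Rnu12 had 5.95, 5.02 and 5.74 CPM in rRNA-depleted libraries and Rnu11 4.96, 3.87 and 4.64 CPM, with no polyA library above 0.05 CPM for either.

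The microRNA genes, whose hairpins are cut from longer primary transcripts, were also mostly on the rRNA-depleted side. Of 1054 listed genes 665 had a count and 147 were tested, and 134 were higher in rRNA-depleted and 4 in polyA libraries. The tested members had a median of 0.0041 CPM in polyA libraries, so most passed the count filter only through the rRNA-depleted libraries. The direction of these calls was thus largely set by the filter. Levels of the tested genes were low, with a median of 1.38 CPM and 12 genes at 10 CPM or more in rRNA-depleted libraries. Of the 147, 130 overlap the body of another gene. The values are counts on hairpin loci and not levels of mature microRNAs. Mir686, within Psmb5, had no count in polyA and 50.2, 43.9 and 41.7 CPM in rRNA-depleted libraries, at least 623-fold higher against 3 counts per library. Mir6418, within Gnb2, had 29.9, 31.1 and 28.7 CPM and 1 count over the 3 polyA libraries. Mir6236 went the other way, with 57.2, 34.6 and 75.3 CPM in polyA and 0.189, 0.255 and 0.143 CPM in rRNA-depleted libraries, log2 7.94 (SE 0.42, adjusted p = 1.7e-06). The mature sequences of these loci (RefSeq, GRCm38.p6, seed in capitals) share no seed.
mmu-miR-686, chr14:54616746-54616767 (- strand): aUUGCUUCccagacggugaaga
mmu-miR-6418-5p, chr5:137529551-137529571 (- strand): uCAGGGGAagggaagagaugc
mmu-miR-6418-3p, chr5:137529509-137529530 (- strand): aCUGCAACcuccuuucuccagg
mmu-miR-6236, chr9:110281353-110281371 (+ strand): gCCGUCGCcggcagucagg

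Long noncoding RNAs fell on both sides. The list of 22 took 0.574% ± 0.0940 of polyA and 0.556% ± 0.139 of rRNA-depleted counts (exact permutation p = 0.90), and of 19 tested 6 were higher in polyA and 2 in rRNA-depleted libraries. Malat1, a nuclear speckle RNA whose mature end is a triple helix in place of a tail, had 794, 1069.5 and 1409 CPM in polyA and 3315, 3436 and 5270.1 CPM in rRNA-depleted libraries, log2 −2.09 (SE 0.24, adjusted p = 8.7e-05). Its groups did not overlap. Neat1, the scaffold of paraspeckles, had 1367, 1647 and 1608 against 291, 293 and 348 CPM, log2 2.10 (SE 0.12, adjusted p = 2.1e-06). Xist, which coats the inactive X chromosome, had 1559, 2109 and 2339 against 341, 493 and 732 CPM, log2 1.73 (SE 0.26, adjusted p = 4.2e-04). Both were thus higher in polyA, in every library. Kcnq1ot1, an imprinted antisense RNA, had 164, 205 and 218 against 62.4, 78.3 and 90.4 CPM. Its log2 fold change of 1.14 was called, but was lost when the test itself required a change beyond log2 1. Over all 819 tested genes annotated as lncRNA, 273 were higher in polyA and 247 in rRNA-depleted libraries, 33.3% and 30.2%, with a median log2 fold change of −0.01.

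The Snhg host genes, whose introns release small nucleolar RNAs, leaned to the rRNA-depleted libraries. Of 19 tested 11 were higher there and 2 in polyA, with a median of −1.19. Snhg1 had 53.2, 54.3 and 53.3 CPM in polyA and 112, 127 and 101 CPM in rRNA-depleted libraries. Snhg8 had 20.8, 18.3 and 26.00 against 60.3, 72.9 and 61.9 CPM. Gas5, the highest member, had 157, 187 and 174 against 175, 187 and 176 CPM. Its groups overlapped, and its log2 fold change of −0.27 (SE 0.11, adjusted p = 0.051) was under the fold threshold.

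Ribosomal protein genes, short tailed mRNAs of high level, stood mostly on the rRNA-depleted side. They took 5.11% ± 0.152 of polyA and 9.78% ± 0.268 of rRNA-depleted counts. Of 79 tested 50 were higher in rRNA-depleted and 4 in polyA libraries, with a median log2 fold change of −1.19. Rplp1, an acidic stalk protein, had 726, 544 and 781 CPM in polyA and 2406, 2555 and 2314 CPM in rRNA-depleted libraries, log2 −2.04 (SE 0.15, adjusted p = 1.0e-05). Rplp0, the stalk base, had 1835, 1909.7 and 2139 against 2518, 2822 and 3072 CPM, which did not reach the fold threshold. Rps16 (chosen after its values were seen) went against its class, with 517, 484 and 525 CPM in polyA and 10.1, 16.2 and 10.9 CPM in rRNA-depleted libraries, log2 5.15 (SE 0.21, adjusted p = 5.2e-07). Rpl26, Rpl36al and Rpl32l, likewise singled out by their values, were the other 3 higher in polyA. Many of these genes have processed pseudogenes, and 38.0% of the 31-base words of the Rps16 transcript also occur in transcripts of other genes. How reads were divided between copies was not tested.

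Mitochondrial proteins encoded in the nucleus showed a difference of like size. Of 78 tested mitochondrial ribosomal protein genes 45 were higher in rRNA-depleted and 1 in polyA libraries (median −1.16). Of 83 respiratory chain genes the numbers were 53 and 2 (median −1.17). Mrpl33 had 48.1, 49.1 and 39.6 CPM in polyA and 253, 224 and 217 CPM in rRNA-depleted libraries. Atp5h, a subunit of ATP synthase, had 229, 235 and 209 against 658, 497 and 570.5 CPM, log2 −1.57 (SE 0.13, adjusted p = 1.6e-05). Atp5b, the catalytic subunit and the highest of the list, had 1259, 1167 and 1036 against 1652, 1480.1 and 1414 CPM and was not called. Mrps6, the exception among the ribosomal members, had 155, 112 and 140.5 against 40.03, 37.3 and 35.1 CPM, log2 1.65 (SE 0.15, adjusted p = 3.0e-05).

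The translation, cytoskeleton and glycolysis lists had median log2 fold changes of −0.21, −0.41 and 0.16, respectively, and 7 of 13, 16 of 23 and 9 of 13 tested genes were not called. Tpt1, a growth-associated protein, had 1763, 1932 and 1997 against 1849, 1829 and 2025 CPM, with nearly the same range in both kinds. Pabpc1, the cytoplasmic poly(A)-binding protein (chosen after its values were seen), was the translation gene furthest to polyA, with 1369, 1511 and 1276 against 160.2, 306 and 255 CPM and log2 2.31 (SE 0.23, adjusted p = 4.1e-05). Gapdh, often used as a reference gene, had 2102, 1719.8 and 1417 CPM in polyA and 787, 761 and 639 CPM in rRNA-depleted libraries, log2 1.05 (SE 0.17, adjusted p = 6.8e-04). That call was lost without polyA library 1 (log2 0.89) or without rRNA-depleted library 3 (log2 0.94). The 372 tested genes with Zfp, Zkscan or Zscan symbols had a median of 0.02. Of these 66 (17.7%) were higher in polyA and 28 (7.53%) in rRNA-depleted libraries, both below the 24.4% and 15.8% of all tested genes.

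By CPM, which takes no account of transcript length, the polyA libraries were led by genes of the extracellular matrix. Fn1, which encodes fibronectin, was the highest gene, with 23082, 21237 and 24551 CPM, and had 1237, 1288 and 1186 CPM in the rRNA-depleted libraries, log2 4.0 (SE 0.12, adjusted p = 7.9e-08). Col1a2 had 6239, 6632 and 7085 against 862, 1474 and 1319 CPM, log2 2.24 (SE 0.19, adjusted p = 2.2e-05), and Col1a1 6276, 5782 and 6239 against 174, 409.8 and 335 CPM, log2 4.10 (SE 0.30, adjusted p = 9.1e-06). Both encode chains of type I collagen, which assemble in a fixed ratio. Bgn, the matrix proteoglycan biglycan, had 4551, 4796 and 5319 against 799.9, 869 and 944 CPM, log2 2.28 (SE 0.11, adjusted p = 1.1e-06). Col3a1 did not follow, with 2761, 3021 and 3982 against 2803, 1718 and 2597 CPM, overlapping groups and adjusted p = 0.29.

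Of 35 tested collagen genes 13 were higher in polyA and 2 in rRNA-depleted libraries, with a median log2 fold change of 0.71. The class took 2.69% ± 0.186 of polyA and 0.872% ± 0.0369 of rRNA-depleted counts. Col6a1, Col6a2 and Col6a3, the chains of type VI collagen (the latter 2 chosen after their values were seen), had polyA means of 2451, 1351 and 1754 CPM. Their rRNA-depleted means were 883, 276 and 364 CPM, and all 3 were called. Other genes high in polyA and low in rRNA-depleted libraries, named after their values were seen, were Fth1 (ferritin heavy chain), Hsp90ab1 (a cytosolic chaperone) and Lrp1 (an endocytic receptor). Fth1 had 2066 ± 154 against 198 ± 36.01 CPM, Hsp90ab1 2341 ± 262 against 241 ± 64.2 CPM and Lrp1 1915 ± 163 against 148 ± 34.4 CPM (mean ± SD, n = 3).

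The rest of the polyA top 10 were housekeeping and cytoskeletal genes that differed less. Eef1a1, a translation elongation factor, was second in polyA and the highest mRNA of the rRNA-depleted libraries, with 8224, 9883 and 9060.2 against 9897, 11250.3 and 12217 CPM. Vim, an intermediate filament gene, had 4772, 4876 and 6053 against 3387, 3026 and 2598 CPM, Actg1 4829, 5221 and 5238 against 3187, 3239 and 3288 CPM, and Nedd4, a ubiquitin ligase, 2807, 3366 and 3669.7 against 1967, 1675 and 2255 CPM. None of these 4 reached the fold threshold. Eef2 had 3415, 3519.6 and 4439 against 1062, 1412 and 1345 CPM and did, log2 1.36 (SE 0.15, adjusted p = 7.5e-05).

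After Rpph1, Rmrp, Eef1a1 and Malat1, the rRNA-depleted libraries were led by short and cytoskeletal mRNAs. Ppia (cyclophilin A) had 3942, 3359.6 and 3503 CPM there and 2135, 1957 and 1528 CPM in polyA. Ftl1 (ferritin light chain) had 3694, 3681 and 3406 against 2386, 2075 and 2252 CPM, and Lgals1 (galectin-1) 3162, 3336 and 3120.2 against 1371, 1439 and 1265 CPM. Actb had 3089, 3444 and 2946 against 2810.3, 2673 and 2782 CPM. Ahnak, a giant scaffold protein with an 18100-base transcript, was the long gene among them, with 2943, 4184 and 2827 against 1729, 1832 and 1697 CPM. Lgals1 was called at log2 −1.45 (SE 0.11, adjusted p = 8.5e-06), whereas the calls of Ppia and Ahnak were lost under library totals and when 1 library was left out (Ppia without polyA library 3, log2 −0.99, and Ahnak without rRNA-depleted library 2, log2 −0.92). The 2 ferritin chains had log2 fold changes of opposite sign, Fth1 at 3.17 and Ftl1 at −0.90. Ftl1 did not reach the fold threshold, and 57.7% of its 31-base words also occur in transcripts of other genes.

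**Figure D3:**
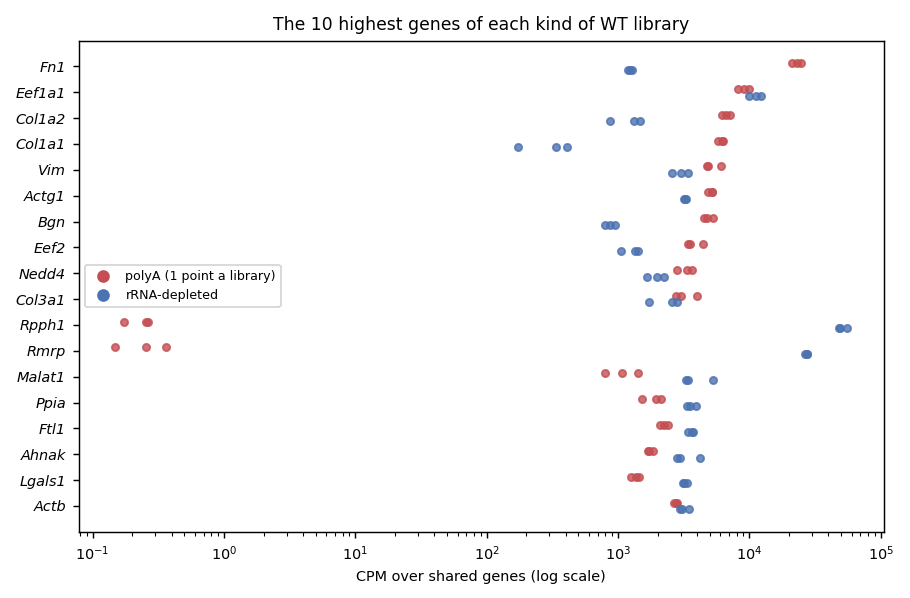
CPM (x axis, log scale) of the 10 highest genes of the polyA libraries followed by those of the rRNA-depleted libraries not already shown, 1 point for each of the 6 WT libraries. Rpph1 and Rmrp lie below 1 CPM in polyA and at 26631 CPM or more in rRNA-depleted libraries, Fn1 and Col1a1 are far higher in polyA, and Eef1a1, Actg1 and Actb have nearby values in both.

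The 10 highest genes took 6.74 to 7.56% of the counts of a polyA library and 10.98 to 12.02% of a rRNA-depleted library, where Rpph1 and Rmrp alone took 7.46 to 8.30%. Of the 100 highest genes of each kind, 50 were shared. Per kilobase of exon 51 were shared. The polyA 100 held 19 ribosomal protein genes, 7 collagens and no replication-dependent histone. The rRNA-depleted 100 held 45, 2 and 12. The median transcript length was 2426 bases in the polyA 100 and 1169 bases in the rRNA-depleted 100. Per kilobase of exon Eef1a1 led the polyA libraries at 3632 CPM, followed by S100a4, a calcium-binding protein, at 2479 CPM, and Fn1 at 1965 CPM. Number 10 was Rpl23a at 1157 CPM. Col1a1, Bgn, Col1a2 and Col3a1 were lower, at 929, 802, 535 and 332 CPM per kilobase. Exon length here is the union of exons over all annotated transcripts of a gene. For Bgn and Col1a2 it was 6099 and 12426 bases, whereas the transcript used for length had 2419 and 5348 bases. For Col1a1 the 2 lengths were closer, at 6563 and 5930 bases. The order thus depends on the length used, and a ranking by transcript length was not made. In rRNA-depleted libraries Rmrp led at 100281 CPM per kilobase and Snord33 followed at 5784. All 31-base words of both also occur in transcripts of other genes, and all exonic bases of Snord33 lie in exons of Rpl13a. Their values are thus uncertain. Rpph1 had no exon length in the matched annotation and was left out of the ranking per kilobase.

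The 12 genes furthest to polyA were mostly loci with almost no rRNA-depleted count. Gm20594 had 125, 110.3 and 111 CPM in polyA and the pseudogene Gm17821 64.04, 75.3 and 82.00 CPM. Neither had a count in any rRNA-depleted library, so they were at least 921-fold and 588-fold higher against 3 counts per library. Ctse, which encodes the protease cathepsin E, had 163, 184 and 155 against 0.0473, 0.128 and 0.0713 CPM. Cmah, which encodes the CMP-sialic acid hydroxylase, had 95.2, 126 and 132 against 0.0473, 0.0851 and 0.0713 CPM, and the lncRNAs Gm10845, A130077B15Rik and 3110070M22Rik had polyA means of 95.8, 33.5 and 67.8 CPM with rRNA-depleted means under 0.08 CPM. Gm14288 and Gm14308 share all and 98.6% of their 31-base words with other transcripts and are uncertain, as is the pseudogene Gm10653, which lies across Calml4 and Cln6. Ecm1, extracellular matrix protein 1, was the best measured of the 12, with 767, 691 and 616 against 10.3, 17.4 and 13.2 CPM and log2 5.45 (SE 0.23, adjusted p = 5.9e-07). Groups that do not overlap were a condition for naming these 12 genes. Over all tested genes the groups did not overlap in 44.5% with polyA higher and in 28.5% with rRNA-depleted higher.

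Some genes on the rRNA-depleted side share their position with a highly counted neighbour. Wdr38 (chosen after its values were seen) had 212, 209 and 209.7 CPM in rRNA-depleted and 0, 0.0743 and 0.0961 CPM in polyA libraries. It overlaps Rpl35, a ribosomal protein gene with 1173, 1236 and 1301 and 386, 389.7 and 393 CPM, and 28.6% of its exonic bases lie in exons of other genes. Over the 13313 tested genes with a transcript, those with no exon overlap were higher in rRNA-depleted libraries in 12.1% of cases, those with up to 25% overlap in 18.4% and those with more in 31.5%. The part of neighbouring reads in these values was not tested.

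Transcript length and base composition varied with the contrast across protein-coding genes. Genes were cut into 4 bins of equal size. In the bin of the shortest transcripts (up to 1974 bases) the median log2 fold change was −0.47, with 14.6% higher in polyA and 27.9% in rRNA-depleted libraries. In the bin of the longest (over 4586 bases) it was 0.48, with 33.3% and 5.79%. Genes with 1 exon had a median of −0.59 and genes with over 15 exons 0.50. GC content, a property added after seeing the data, ran the same way, from −0.25 in the lowest to 0.36 in the highest bin. Both together gave the widest step. Genes above the median in length and in GC content (2674 genes) had a median of 0.94, and 47.6% of them were higher in polyA against 3.70% in rRNA-depleted libraries. Long genes of low GC content had a median of 0.05, short genes of high GC content −0.09 and short genes of low GC content −0.39. Col1a1, Col1a2, Fn1 and Lrp1 belong to the first of these groups, with GC contents of 58.9, 55.7, 53.5 and 57.9%. Col3a1 and Flna, a crosslinker of actin filaments, belong to it too, with GC contents of 52.5 and 53.8%, and were not called, with log2 fold changes of 0.25 and −0.06, the latter changing sign under library totals. Genes of one bin share libraries and are not independent, so no test is given.

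**Figure D4:**
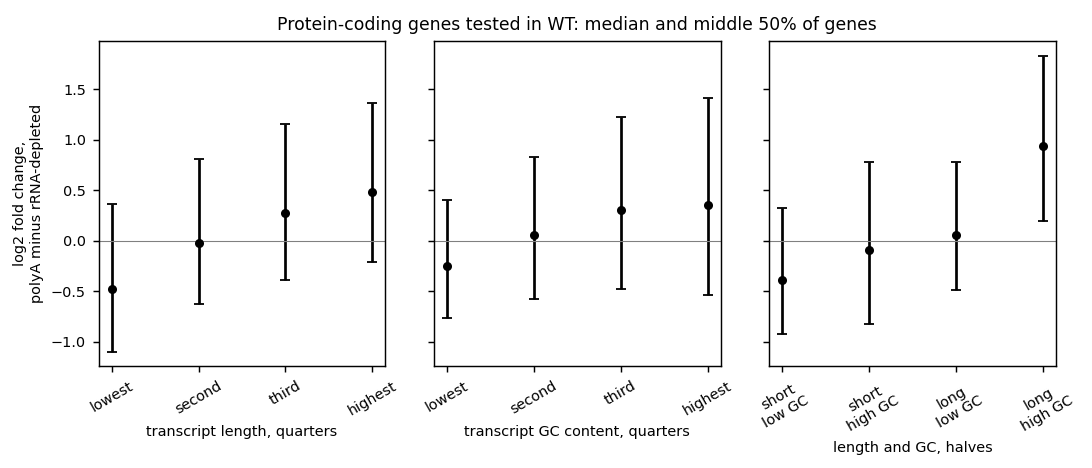
Log2 fold change, polyA minus rRNA-depleted (y axis), of the 13063 tested protein-coding genes with a transcript, by 4 bins of transcript length, 4 bins of GC content and both split at their medians; points are medians and bars span the middle 50% of genes. The median climbs with length and with GC content and is highest, at 0.94, where both are high.

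The markers of mesenchymal progenitors were present in both kinds. Of 15, 14 were tested, and their sum was 3.90% ± 0.202 of polyA counts and 0.561% ± 0.0460 of rRNA-depleted counts, with Fn1 and the type I collagen genes as most of the polyA sum. Nt5e was under 0.4 CPM in both kinds and Thy1 at 1.07 and 0.370 CPM. Pdgfrb, a receptor of mesenchymal cells, had 420.4, 421 and 502 CPM in polyA and 74.2, 82.9 and 88.3 CPM in rRNA-depleted libraries, log2 2.24 (SE 0.12, adjusted p = 1.9e-06). Ly6a, the Sca-1 antigen, had 486, 379 and 208 against 912, 773 and 596 CPM, and its call at log2 −1.30 was lost without polyA library 3 (log2 −0.99). Pdgfra, called at log2 1.03, was lost when polyA library 3 or rRNA-depleted library 1 or 2 was left out (log2 0.89 to 0.98). Cd44 had 139, 139 and 107 against 129, 156 and 134 CPM and was not called. Markers of epithelium, endothelium, leukocytes, neurons, adipocytes and muscle summed to 0.00200 to 0.00216% of polyA and 0.00164 to 0.00185% of rRNA-depleted counts over 19 genes. In polyA libraries Des was the highest of the 19 at 6.41 CPM, followed by Cd68 at 4.70 and Cdh1 at 4.11 CPM. All were above the progenitor marker Thy1. In rRNA-depleted libraries Tubb3 was the highest of the 19 at 7.98 CPM, and Cidec had no count in either kind. Among them Tubb3 was higher in rRNA-depleted libraries and Snap25 in polyA, the latter below 1 CPM.

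The same contrast was then read in the 2 Atrx knockout clones. In the sg5 clone 3831 of 15585 tested genes (24.6%) were higher in polyA and 2386 (15.3%) in rRNA-depleted libraries (39.9% together), and in the sg6 clone 3625 (25.3%) and 2086 (14.5%) of 14351 (39.8% together). Of the genes called higher in polyA in WT and tested in both, 2839 of 3441 were called in sg5 (82.5% of the WT list and 86.4% of the sg5 list). In sg6 this was 3046 of 3332 (91.4% and 88.8%). For genes higher in rRNA-depleted libraries it was 1755 of 2239 in sg5 (78.4% and 83.7%) and 1839 of 2196 in sg6 (83.7% and 92.4%). The polyA sg5 libraries were the deepest of the series, at 161036799 to 235346363 counts on the shared genes. Class medians in sg5 and sg6 were −10.81 and −10.63 for replication-dependent histones, −8.45 and −8.46 for Cajal body RNAs, and −1.30 and −1.19 for ribosomal proteins. For Rpph1 the log2 fold changes were −18.17 and −17.35, for Fn1 3.52 and 4.15, for Rps16 4.90 and 5.17 and for Malat1 −1.70 and −1.68. Genes with length and GC content above the median had medians of 0.87 and 0.96. Each clone has its own libraries of both kinds, made by the same pair of facilities and counted by the same pair of tools as WT.

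**Figure D5:**
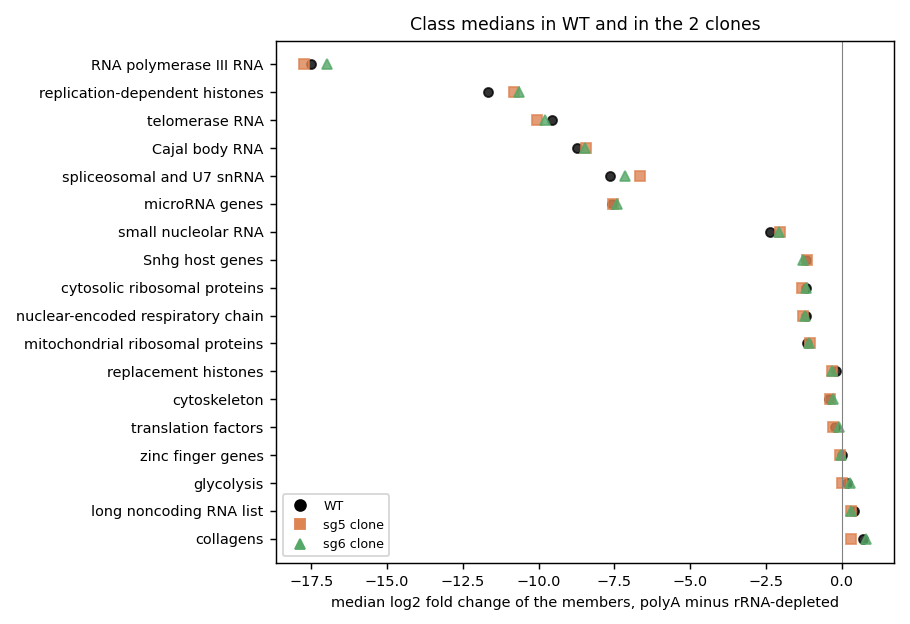
Median log2 fold change, polyA minus rRNA-depleted (x axis), of the tested members of each RNA class in WT (circles), the sg5 clone (squares) and the sg6 clone (triangles). In WT the medians run from −17.53 for RNA polymerase III RNAs to 0.71 for collagens, and WT and both clones lie on the same side of 0 in every class shown except the zinc finger genes, where the medians are 0.02, −0.06 and −0.01.

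A direct test of the WT difference against the mean of the 2 clone differences over all 18 libraries called 78 of 14945 genes (0.522%), with 25 (0.167%) further to polyA in WT and 53 (0.355%) further to rRNA-depleted in WT. At an unadjusted p below 0.05 there were 1022. Only 10 of the 78 had a mean of at least 1 CPM in all 6 groups. They included H3c14, at log2 −6.95 in WT and −5.37 and −4.95 in the clones (difference −1.73, adjusted p = 0.023). All 31-base words of H3c14 also occur in transcripts of other genes, so its values are uncertain. The other 2 given here, named after their values were seen, were Mid1, a microtubule-associated ubiquitin ligase, at 3.79 in WT and 2.92 and 2.39 in the clones, and Tnmd, the tendon gene tenomodulin, at −0.97 in WT and −3.35 and −3.51 in the clones. With at least 10 counts required in every library, 7 and 6 genes were called.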

How the data were processed

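PolyA RNA-seq and rRNA-depleted RNA-seq were made from C3H/10T1/2 cells at separate facilities. For polyA libraries the authors estimated transcript abundance with Salmon (version 0.8.2 in the submitters' processing notes) on UCSC known genes of mm10, summed it to genes with tximport, and deposited expected counts written as whole numbers. The rRNA-depleted reads were aligned by the authors with STAR 2.27.10a, many alignments per read being allowed, and the deposited values are counts that TElocal made per gene and per transposable element locus. The gene model and strand setting of TElocal are not given in the sources used here. No per-sample column was left unmapped, and element loci were kept out of all totals.

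The 24100 Entrez identifiers of both tables were joined. RefSeq (GRCm38.p6) gave symbols for 24045 and GENCODE M21 (GRCm38, the mm10 assembly) transcripts for 21167. edgeR 4.0.16 in R 4.3.3 (filterByExpr, TMM factors, quasi-likelihood test, limma 3.58.1) compared 3 polyA with 3 rRNA-depleted libraries, with Benjamini-Hochberg adjustment over all tested genes. All adjusted p-values of single genes come from it. On simulated data with 14312 genes drawn from the WT libraries, 86 of 100 genes changed by log2 1.5 and 99 of 100 changed by log2 3 were called, with 5 false calls. In the WT libraries themselves 40.2% of the tested genes were called. The rate of false calls at so large a share, or under another scale, was not tested. The same fit was run in each clone, and a fit over 18 libraries tested WT against the clones. Shares of counts were compared by an exact two-sided permutation test. Medians and counts over lists and over transcript properties carry no test. Intervals and floors (3 counts per library) cover counting error only.

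Named were the 10 highest genes of each kind, the 12 called genes with the largest change in each direction among those with at least 30 CPM and groups that do not overlap, up to 4 members with the highest levels of each list, and the markers. Genes outside this rule were chosen after their values were seen, which holds for Atrx, H1f2, H2ax, H3c14, Kcnq1ot1, Rpl13a, Rpl35, Rplp1, S100a4 and Snora31 beside those marked in the text. The comparison, the members and the lists were chosen with earlier results of these data known. Alternatives covered scaling, DESeq2 1.42.0, count filters, thresholds, thinning, gene subsets, the replicate block and leaving out single libraries. GC content, exon overlap and leaving out single libraries in the clone fits were added after seeing the data.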

Additional observations from a re-analysis of the deposited data

Results flagged for a closer look

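The contrast between kinds differed between WT and the clones in 78 genes by edgeR's test of the difference itself. Among genes named in the report these were H4c8, with a difference of −2.29 (WT minus the mean of the clones, log2, adjusted p = 0.037), H3c14 with −1.73, Cmah with 3.99, Mid1 with 1.19 and Tnmd with 2.51. H4c8 had 0.126 CPM in polyA WT libraries and 0.338 and 0.757 CPM in those of the sg5 and sg6 clones, against 1784 CPM and 1230.1 and 1303 CPM in rRNA-depleted libraries. H3c14 had 11.2 CPM in polyA WT and 21.5 and 25.2 CPM in the clones, and 1190.2 against 770.4 and 716 CPM in rRNA-depleted libraries. Cmah had 118 CPM in polyA WT and 112 and 83.7 CPM in the clones, and 0.0679 against 0.544 and 1.53 CPM in rRNA-depleted libraries. Mid1 had 749 CPM in polyA WT and 718 and 269 CPM in the clones, and 46.7 against 82.5 and 47.2 CPM in rRNA-depleted libraries. Tnmd had 40.05 CPM in polyA WT and 1.0995 and 4.75 CPM in the clones, and 67.7 against 9.76 and 50.1 CPM in rRNA-depleted libraries. The counted polyA signal of both histones was thus higher, and their rRNA-depleted signal lower, in each clone than in WT. H4c8 had only 1, 14 and 7 counts in the polyA WT libraries. Of the 31-base words of H4c8 50%, and of H3c14 100%, also occur in transcripts of other genes, so the values of these single genes are uncertain. Depth differed between these libraries, and its part in the differences was not tested.

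The rRNA-depleted table also counts reads on transposable element loci, which no comparison in the report used. In the WT libraries these loci took 12.3% of all counts as the median, in a range from 11.8 to 15.5%. In the sg5 and sg6 clones the range was 10.4 to 11.4% and 11.3 to 12.1%.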

How the results depend on the processing

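Library kind, facility and counting tool changed together, and separate harvests are not stated. The 3 libraries per kind came from one line, and genes with few counts in one kind have no stable fold. Of the 106 genes followed through the alternatives, 84 were called, and 5 of these lost the call when a single library was left out (Ppia, Ahnak, Gapdh, Pdgfra and Ly6a). Under library totals Snhg5, Ppia and Ahnak lost it. DESeq2, median-of-ratios factors, no count filter, 1 fit over 18 libraries and the replicate block changed no call among them.

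The number of WT genes higher in rRNA-depleted libraries was 1466 among genes without exon overlap, where fewer genes were tested, and 1381 when the test itself required a change beyond log2 1. With log2 beyond 2 and adjusted p below 0.01 the counts were 1637 for polyA and 775 for rRNA-depleted. Leaving out single libraries gave 3389 to 3826 and 2120 to 2540 genes. For the difference between WT and clones, at least 10 counts in every library left 7 and 6 genes, and leaving out single libraries gave 11 to 27 further to polyA in WT and 34 to 53 further to rRNA-depleted. The 11 came without polyA WT library 2 or 3 or rRNA-depleted WT library 2, 13 without rRNA-depleted WT library 1, 15 without rRNA-depleted sg6 library 3, and 34 without rRNA-depleted WT library 3. The cause of these changes was not tested.

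Same-numbered libraries of the 2 kinds had correlated deviations of 0.108, 0.0723 and 0.450 for numbers 1 to 3, and polyA library 1 correlated best with rRNA-depleted library 2 (0.341), so the numbers were not taken as a pairing. With the replicate block the counts were 3511 and 2275 in WT, and 42 and 68 genes for WT against the clones.

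H2bc21 had log2 values of 0.13 under library totals and 0.017 after thinning, and −0.49 to 0.23 without single libraries. Flna, not called, had 0.15 under library totals and −0.12 to 0.018 without single libraries. The difference in share, polyA minus rRNA-depleted in percentage points, changed sign under these settings. Without the 10 highest genes of each kind it was −0.238 for cytoskeleton, −0.0683 for translation factors and −0.0126 for protein-coding genes. Translation factors gave −0.167 over protein-coding genes only, and −0.0536 to 0.0916 without single libraries. The lncRNA list ranged from −0.0301 to 0.0982 without single libraries. Annotated lncRNA genes gave −0.00213 over genes that passed the filter and −0.0550 to 0.0954 without single libraries. The stem-loop share of histones was 3.33% in the last 30 and 31.7% in the last 100 bases, since longer windows reach loops farther from the annotated end.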
